A study of Mus musculus with 4 samples.

Results

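The purinergic set holds P2rx7, the gene of the ATP-gated channel P2X7, and 7 other genes grouped with it under purinergic signaling: P2rx4, P2rx1, P2ry10, Entpd1, Nt5e, Adora2a and Panx1. A member was taken as measured where a probe set of the array carried exactly its symbol and no other, and was represented by the brightest such probe set over the 4 arrays. By this rule 7 of the 8 genes were measured, by 17 of 45037 probe sets, among 18193 genes in all. No probe set was named for Adora2a alone in the platform annotation used here, and this gene was not analysed here. The arrays hold follicular helper T (TFH) cells sorted from the spleen at day 8 after infection with LCMV Armstrong. One group came from Rictor-/- mice (Rictor fl/fl with Cd4-Cre, labelled Rictor-null) and the other from WT mice, which are Rictor fl/fl littermates without Cre, with 2 arrays in each group. Each array is labelled a biological replicate and, per the series description, is a pool of at least 5 mice, whose age the labels do not give. The study's figure legend gives other numbers of mice, stated per group, and the WT number is smaller than this minimum. Whether it counts the mice of each pool or of the whole group is not clear. How many mice stand behind each array is thus not settled. Cd4-Cre deletes in all cells that have passed through the CD4-expressing stage of the thymus, CD8 T cells included.

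Extracellular ATP and its products act on lymphocytes through a short chain of proteins. Pannexin 1 is a membrane channel that lets ATP out of cells, P2X receptors are cation channels opened by ATP, the ectoenzyme CD39 (Entpd1) turns ATP and ADP into AMP, CD73 (Nt5e) turns AMP into adenosine, and adenosine acts on the A2A receptor (Adora2a), which raises cAMP and restrains T cell activation. P2X7 needs far more ATP than other P2X receptors, can open a large pore and kill T cells, and is known to limit TFH cell numbers in the gut. CD73 is known from T cells of germinal centers and CD39 from regulatory T cells, effector T cells, myeloid cells and endothelium. P2ry10 was named as a P2Y receptor and is known to bind lysophosphatidylserine.

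Transcripts of P2rx7 and Nt5e were lower and those of Entpd1 were higher in Rictor-/- than in WT TFH cells. P2rx7 intensity was 1.67-fold lower and Nt5e intensity 1.48-fold lower, both from bright probe sets, whereas the 1.69-fold higher intensity of Entpd1 was measured at the dim end, with both WT arrays below the array median. P2rx4, P2rx1, P2ry10 and Panx1 did not pass the test. Thus 2 of the 7 measured members were lower and 1 was higher at an adjusted p under 0.05 (limma, Benjamini-Hochberg adjustment over all genes), while over all 18193 genes 7.18% were lower and 12.5% higher by the same rule. The median log2 fold change of the 7 members was -0.05, and that of all genes was 0.0068. The intensities of the groups did not overlap for 5 of the 7 members, beside 55.5% of all genes.

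**Figure D1:**
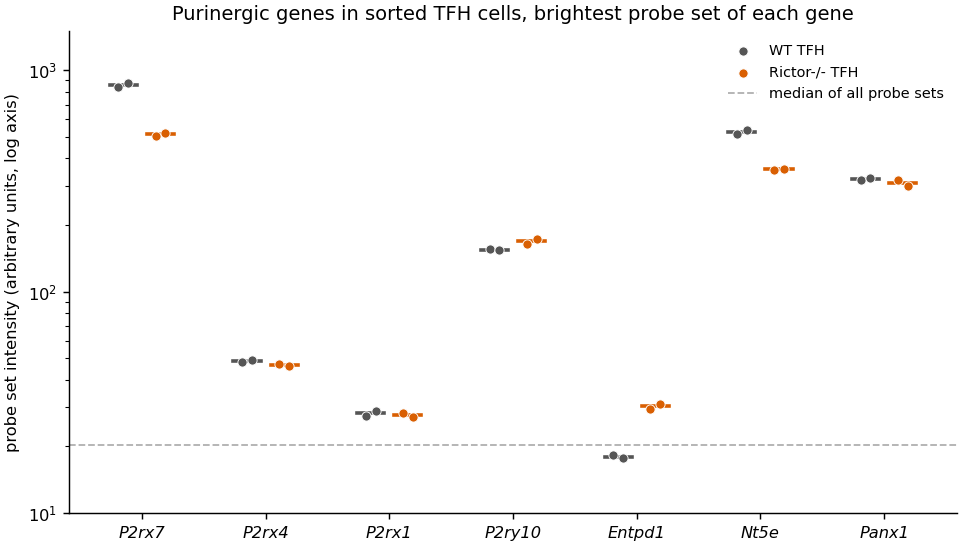
Probe set intensity (y axis, arbitrary units, log axis) of the 7 measured purinergic genes (x axis, brightest probe set of each) in WT (grey) and Rictor-/- (orange) TFH cells. Points are arrays, short bars the group means, and the dashed line the median of all probe sets (20.2). P2rx7 and Nt5e lie lower and Entpd1 lies higher in Rictor-/- cells, and the 2 WT points of Entpd1 lie under the dashed line.

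The sequence before the starts of the genes that changed is given here, to show what precedes P2rx7 and Nt5e, which fell together, and Entpd1, which rose. RefSeq windows (GRCm38.p6) were found for 7 of the 8 members, with 2 starts each for P2rx7, P2ry10 and Entpd1. Of Entpd1 only the window of the first start is printed. Each window is the 250 bases before a start, written 5′ to 3′ along the gene. Capitals mark matches on either strand to 4 motifs: TGANTCA (AP-1, the Fos and Jun factors), GTAAACA (FOXO factors, which AKT restrains), CTTTGA (TCF1 and LEF1) and GGGCGG (GC box).
P2rx7 start 1, chr5:122643677-122643926, plus strand: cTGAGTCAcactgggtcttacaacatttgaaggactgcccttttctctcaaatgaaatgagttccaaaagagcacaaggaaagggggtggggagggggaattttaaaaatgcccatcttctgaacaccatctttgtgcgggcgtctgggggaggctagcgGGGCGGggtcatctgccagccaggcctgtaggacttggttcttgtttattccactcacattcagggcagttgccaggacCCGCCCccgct
P2rx7 start 2, chr5:122650133-122650382, plus strand: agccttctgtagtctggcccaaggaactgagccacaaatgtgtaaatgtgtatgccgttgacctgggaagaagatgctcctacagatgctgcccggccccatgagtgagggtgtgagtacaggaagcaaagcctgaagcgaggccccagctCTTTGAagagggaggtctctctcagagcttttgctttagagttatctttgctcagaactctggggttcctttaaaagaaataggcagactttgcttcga
Nt5e, chr9:88327359-88327608, plus strand: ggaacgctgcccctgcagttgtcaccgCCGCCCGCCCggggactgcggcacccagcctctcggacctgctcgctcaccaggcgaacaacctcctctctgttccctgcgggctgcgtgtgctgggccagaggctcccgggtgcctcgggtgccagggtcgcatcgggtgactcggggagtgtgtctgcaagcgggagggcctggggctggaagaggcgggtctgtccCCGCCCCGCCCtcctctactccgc
Entpd1 start 1, chr19:40612116-40612365, plus strand: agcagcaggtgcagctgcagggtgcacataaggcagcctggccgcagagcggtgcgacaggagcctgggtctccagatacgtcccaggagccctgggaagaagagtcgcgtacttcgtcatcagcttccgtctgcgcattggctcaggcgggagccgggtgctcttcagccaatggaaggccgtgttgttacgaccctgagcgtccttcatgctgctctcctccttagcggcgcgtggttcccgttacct

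The first P2rx7 window held 1 AP-1 match, which begins 249 bases before the start, and 2 GC boxes, which begin 90 and 11 bases before it. The second P2rx7 window held 1 TCF/LEF match, beginning 99 bases before the start. The Nt5e window held 4 GC boxes in 2 overlapping pairs and none of the other motifs. Neither Entpd1 window held any of the 4 motifs. Of 32851 windows of the same length, 6.75% held the AP-1 letters, 3.17% the FOXO letters, 13.8% the TCF/LEF letters and 32.7% the GC box. No FOXO match was found in the windows of the 7 members. These matches describe letters only, and nothing was measured here at these sequences.

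Intensities came from an Affymetrix mouse array with 1 colour and are linear, with array medians between 19.98 and 20.4. They were compared as log2(intensity + 16), so that log2 fold changes of dim probe sets are shrunken, and the fold ratios given here are ratios of mean linear intensities. Replicate arrays correlated at 0.998 in both groups (Pearson's r across probe sets) while a Rictor-/- and a WT array correlated at 0.993 to 0.994. Precision is limited by having 2 arrays a group, which leaves 2 residual degrees of freedom for each gene. The limma fit draws the variance of each gene partly from a trend over all 18193 genes. Each p-value thus rests on this shared variance as well as on how far these pools differ. For P2rx7 the limma adjusted p was 1.58e-06 with the trend and 0.000701 without it. As a check of the labels, the brightest of 5 probe sets of Rictor, the deleted gene, read 267 and 279 in Rictor-/- and 334 and 303 in WT TFH cells, a log2 fold change of -0.21 (adjusted p = 0.0366 from limma over genes and 0.0868 over all probe sets). The other 4 had log2 fold changes between -0.03 and 0.11. The sources used here do not say which exons these probe sets read, and one outside the deleted part checks nothing. All of 8 T cell and TFH markers lay above the array median on every array. Of these 6 were lower and 0 were higher in Rictor-/- cells (0 higher also at an unadjusted p under 0.05 from limma). Over all genes 7.18% were lower and 12.5% higher. At an unadjusted p under 0.05 from limma, 2181 of the 18193 genes were lower and 3275 higher. The lower markers were Cd3e, Cd4, Cd44, Bcl6, Pdcd1 and Cxcr5, the last at 503 and 505 against 847 and 812. Icos and Sh2d1a did not pass.

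P2rx7 had the largest fall of the set. Its brightest probe set read 506 and 520 for Rictor-/- cells against 843 and 871 for WT cells. Both Rictor-/- arrays lay far below both WT arrays, and the gap between the groups was larger than the spread within either. The mean intensity was 513 ± 9.83 against 857 ± 20.1 (SD, n = 2 each), and the log2 fold change was -0.72 (standard error 0.05, 95% interval -0.83 to -0.61, adjusted p = 1.58e-06 from limma). By size this was the 31st largest fall among the 18193 genes. In bulk samples, fewer cells that carry a transcript and less of it per cell cannot be told apart.

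A second P2rx7 probe set differed more. It read 171 and 191 for Rictor-/- cells against 424 and 367 for WT cells, a 2.18-fold lower intensity and a log2 fold change of -1.06 (95% interval -1.24 to -0.88, adjusted p = 6.92e-05 from limma over all probe sets). The third read 20.04 and 17.9 against 22.1 and 17.6, lay below the array median on 3 of the 4 arrays, and showed no separation of the groups (log2 fold change -0.03, 95% interval -0.22 to 0.15). RefSeq lists more than 1 start for P2rx7, and which transcripts each probe set reads was not resolved here. Both bright probe sets thus put P2rx7 lower, and the dim one gave a value close to 0.

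The other ATP-gated channels of the set did not follow P2rx7. P2rx4, which encodes a channel more sensitive to ATP and lies next to P2rx7 on chromosome 5, read 47.0 and 46.1 in Rictor-/- and 48.1 and 49.3 in WT TFH cells. The groups were apart by a small step, and the log2 fold change of -0.05 did not pass (95% interval -0.23 to 0.13, adjusted p = 0.777 from limma). Its 3 other probe sets had log2 fold changes of -0.09 to 0.06. P2rx1, the gene of a fast-desensitizing channel known from platelets, read 28.2 and 27.1 against 27.5 and 28.8, with overlapping groups and a log2 fold change of -0.02 (95% interval -0.18 to 0.15, adjusted p = 0.923 from limma). Its other probe set lay below the array median on all 4 arrays. The intervals of the brightest P2rx4 and P2rx1 probe sets did not reach the fall of P2rx7 on this scale, although both genes lay close to the array median. The difference in change between the genes was not tested.

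P2ry10 and Panx1, each read by 1 probe set, did not pass either. P2ry10 read 164 and 173 in Rictor-/- and 155 and 154 in WT TFH cells. Both Rictor-/- arrays were higher, and the log2 fold change was 0.12 (95% interval -0.03 to 0.26, adjusted p = 0.285 from limma). Panx1 read 320 and 298 against 319 and 325, with overlapping groups. Its log2 fold change was -0.06 (95% interval -0.19 to 0.07, adjusted p = 0.599 from limma), so that a change beyond about this interval was not seen in the gene of the ATP release channel.

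Transcripts of CD39 and CD73, ectoenzymes that act one after the other, differed in opposite directions. Nt5e, which encodes CD73, read 354 and 360 for Rictor-/- cells against 516 and 539 for WT cells. The groups lay well apart, with means of 357 ± 3.74 and 527 ± 15.8 (SD, n = 2 each) and a log2 fold change of -0.54 (standard error 0.05, 95% interval -0.66 to -0.43, adjusted p = 2.36e-05 from limma). It was the 90th largest fall among all genes, and averaging its 3 probe sets reduced the value to -0.27 (adjusted p = 0.0148 from limma). A second Nt5e probe set read 37.6 and 44.0 against 49.9 and 49.5 and did not pass over all probe sets (log2 fold change -0.21, adjusted p = 0.178 from limma). The third lay below the array median on all 4 arrays, at a log2 fold change of -0.06. In each of the 3 probe sets both Rictor-/- arrays were lower than both WT arrays.

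Entpd1, which encodes CD39, read 29.6 and 31.0 for Rictor-/- cells against 18.2 and 17.7 for WT cells. Both Rictor-/- arrays were higher, with means of 30.3 ± 1.001 and 18.0 ± 0.404 (SD, n = 2 each). The log2 fold change was 0.45 (standard error 0.07, 95% interval 0.29 to 0.60, adjusted p = 0.000611 from limma), and with 1 added in place of 16 it was 0.72. The WT arrays lay below the array median and the Rictor-/- arrays above it. The 2 other Entpd1 probe sets lay below the median on all 4 arrays. One read 14.6 and 20.05 against 9.44 and 7.65 and passed (log2 fold change 0.44, adjusted p = 0.00547 from limma over all probe sets). The other read 13.3 and 12.9 against 10.9 and 8.96 and did not (log2 fold change 0.17, adjusted p = 0.0826 from limma over all probe sets). In each of the 3, both Rictor-/- arrays were above both WT arrays.

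Counted by probe set, 3 of the 17 were lower (both bright P2rx7 probe sets and the brightest of Nt5e) and 2 were higher (both of Entpd1) at an adjusted p under 0.05 from limma over all 45037 probe sets, where 4.63% were lower and 6.38% higher. Probe sets of 1 gene read the same RNA and are not replicates of each other.

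**Figure D2:**
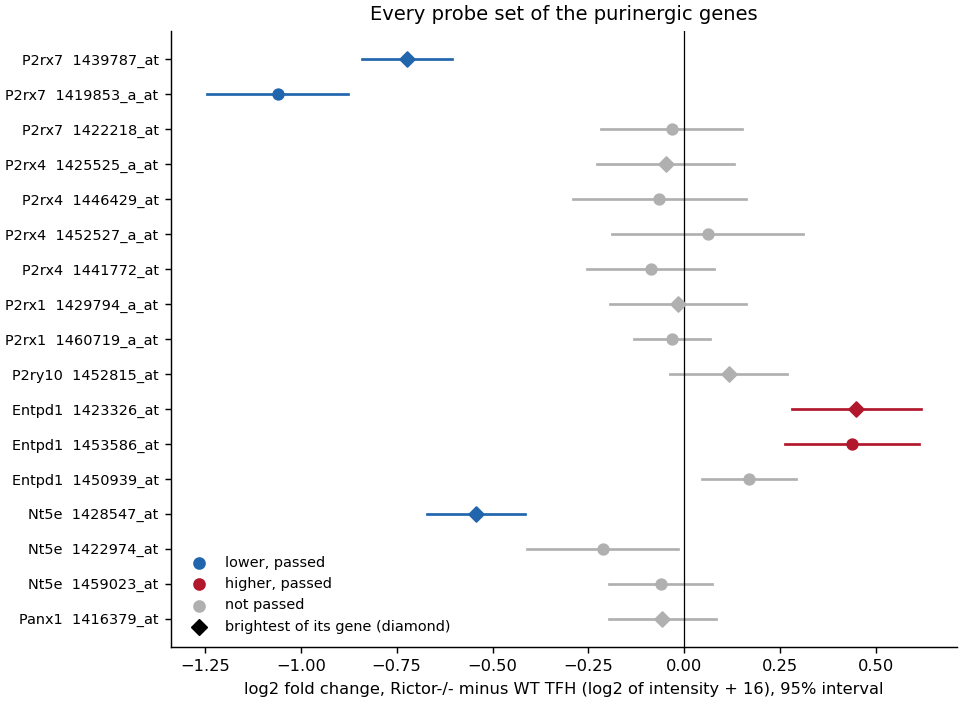
Log2 fold change (x axis, Rictor-/- minus WT TFH cells, log2 of intensity + 16) of the 17 probe sets of the measured purinergic genes (y axis), with 95% intervals from limma. Diamonds are the brightest probe set of a gene, and colour shows what passed over all probe sets. The 2 bright P2rx7 probe sets lie furthest to the left, at -0.72 and -1.06, and the 3 Entpd1 probe sets lie to the right of 0.

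**Figure D3:**
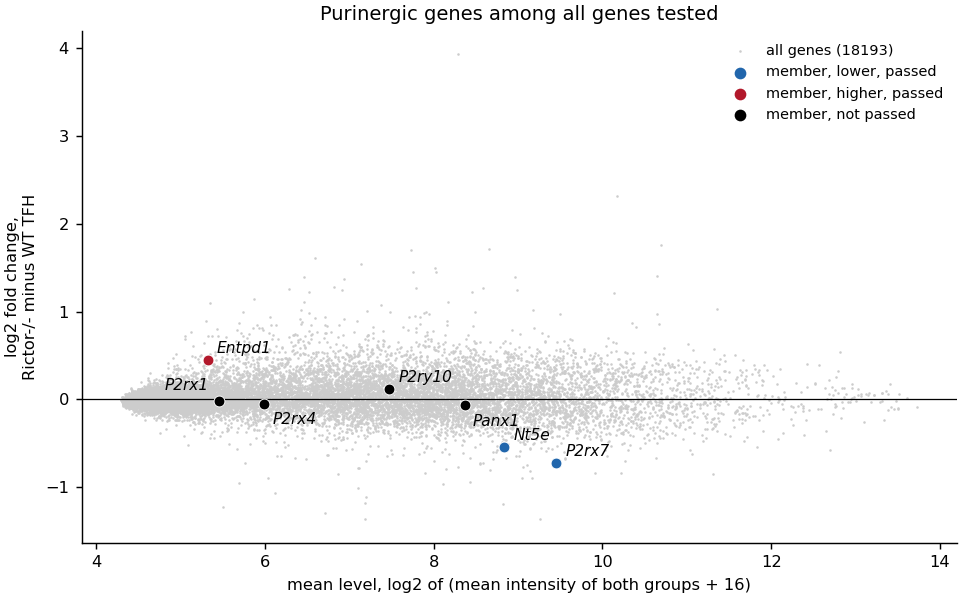
Log2 fold change (y axis) against mean level (x axis, log2 of mean intensity + 16) of 18193 genes (grey) with the 7 measured purinergic genes. P2rx7 and Nt5e (blue) lie at the lower edge of the cloud at their level, Entpd1 (red) lies at the dim end at 0.45, and the other 4 members (black) lie near 0.

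The genes with the profile nearest to that of P2rx7 over the 4 arrays were Rflnb, Afap1, B4galnt4, Irf2bpl and Nfatc1, the gene of a calcium-activated transcription factor. Likeness was the Euclidean distance between log2(intensity + 16) values centred on the WT mean, which ran from 0.0732 for Rflnb to 0.0827 for Nfatc1, and all 5 were lower in Rictor-/- cells, with log2 fold changes of -0.75 to -0.68. Nearest to Entpd1 were Cd48, Ckap2l, Anxa2, Cenph and Cript, at distances of 0.0340 to 0.0376 and log2 fold changes of 0.43 to 0.47. With 2 groups of 2 arrays, such likeness mostly restates the size of the change.

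Most other genes of the pathway were dim or did not differ beyond the test. Of 52 further genes of nucleotide and adenosine signaling, 43 were measured, 22 of these lay below the array median on all 4 arrays, 5 were higher and 0 were lower in Rictor-/- TFH cells by the limma test (8 higher and 1 lower at an unadjusted p under 0.05, and 8 higher and 3 lower by the one-tailed test that the study's methods name, without adjustment). Their median log2 fold change was 0.0068, the same as that of all genes. Over all 18193 genes, 3275 were higher and 2181 lower at an unadjusted p under 0.05 from limma. The one-tailed test without adjustment called 3141 of all genes higher and 2230 lower. No other P2X receptor gene passed, and 3 of the 4 lay below the array median throughout. Among 8 P2Y receptor genes 1 was higher, P2ry14, which encodes a receptor for UDP-sugars and read 23.2 and 19.3 against 12.98 and 13.7 (log2 fold change 0.34, adjusted p = 0.00272 from limma). This call was lost without WT replicate 1 (adjusted p = 0.0725) or WT replicate 2 (adjusted p = 0.0581), and with 1 added in place of 16 the log2 fold change was 0.63. P2ry10b, the paralog of P2ry10, read 48.2 and 42.0 against 35.7 and 34.1, with a log2 fold change of 0.26 that missed the threshold (adjusted p = 0.0520 from limma). It passed in 6 of the 14 alternatives.

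The 5 higher genes of 43 stand beside 12.5% of all genes that were higher. Of 8 measured genes of adenosine uptake and breakdown, 3 were higher and 0 were lower (4 higher and 1 lower at an unadjusted p under 0.05 from limma). Adk, which encodes the kinase that turns adenosine back into AMP inside the cell, read 1087 and 1092 in Rictor-/- and 803 and 759 in WT TFH cells, a log2 fold change of 0.47 (adjusted p = 2.97e-05 from limma). Averaged over its probe sets the Adk value was 0.18 (adjusted p = 0.0481 from limma). Dpp4, which encodes the surface protein CD26, read 617 and 592 against 470 and 490. Its log2 fold change was 0.32 (adjusted p = 0.00076 from limma), but another Dpp4 probe set was lower (-0.28, adjusted p = 0.0298 over all probe sets), and averaging its probe sets gave 0.04 and ended the call, as did leaving out WT replicate 1 (adjusted p = 0.0506). Pnp, the gene of purine nucleoside phosphorylase, read 1166 and 1195 against 1078 and 1014 (log2 fold change 0.17, adjusted p = 0.0226 from limma), a call lost without Rictor-/- replicate 2, WT replicate 1 or WT replicate 2 (adjusted p = 0.0810, 0.0750 and 0.233). It was also lost with eBayes without the trend (limma adjusted p = 0.0701) and when every probe set was fitted (limma adjusted p = 0.0531). Ada, the gene of adenosine deaminase, read 24.2 and 24.8 against 22.1 and 26.6 and did not pass.

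Of 9 measured nucleotidase genes besides Entpd1 and Nt5e, 1 was higher. Acpp, which encodes an acid phosphatase with a membrane form that can make adenosine from AMP, read 208 and 198 against 162 and 159 (log2 fold change 0.31, adjusted p = 0.00427 from limma), and its 2 other probe sets were at 0.05 and 0.06. The call was lost on averaging the 3 (0.14, adjusted p = 0.146) and without WT replicate 1 or WT replicate 2 (adjusted p = 0.0668 and 0.0797). No gene of ATP release passed (0 of 5, and 0 of 5 at an unadjusted p under 0.05 from limma), among them Slc17a9, the vesicular nucleotide transporter gene, at 106 and 108 against 122 and 98.6. Art2a and Art2b, whose products activate P2X7 in mouse T cells from NAD, and Cd38 had no probe set named for them alone and were not analysed here.

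**Figure D4:**
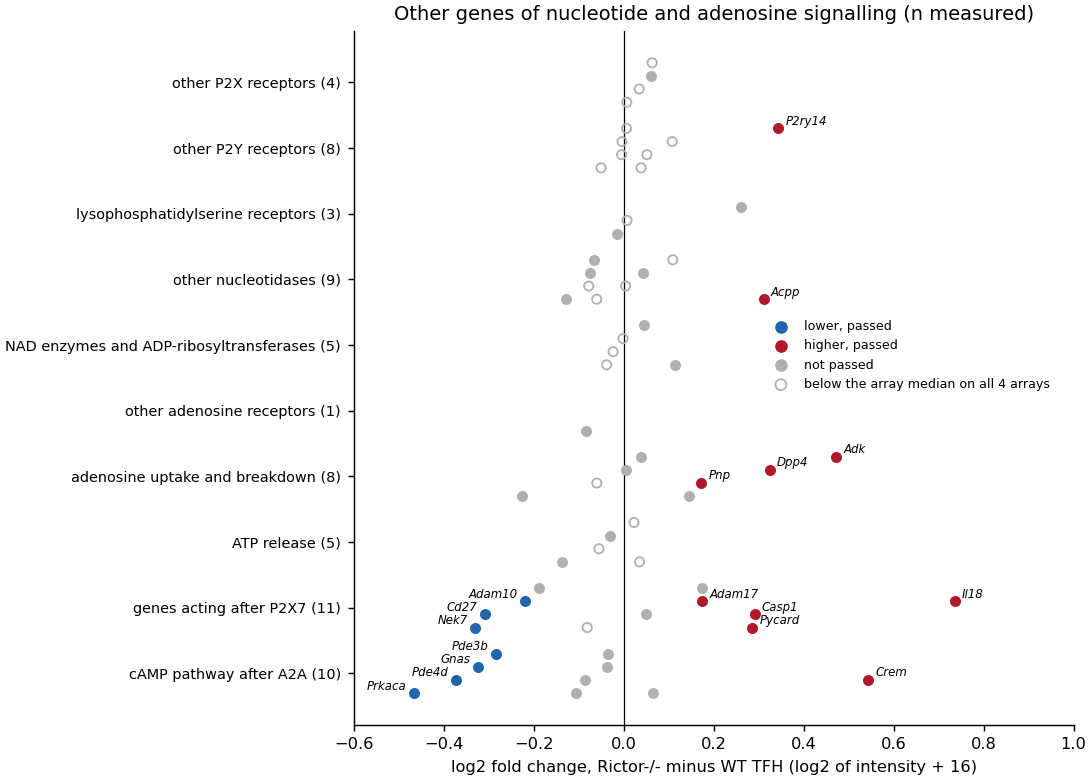
Log2 fold change (x axis, Rictor-/- minus WT TFH cells, log2 of intensity + 16) of the measured genes of 10 lists around the set (y axis, number measured in brackets; vertical scatter within a list is for display). Named genes passed the test, red as higher and blue as lower, grey points did not pass, and open points lay below the array median on all 4 arrays. Adk, at 0.47, is the highest of the adenosine genes, and Prkaca, at -0.47, the lowest of the cAMP genes.

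Genes known to act after P2X7 moved both ways. Of 11 measured, 4 were higher and 3 were lower, beside 12.5% and 7.18% of all genes. Il18, the gene of a cytokine matured by the inflammasome, read 127 and 145 in Rictor-/- and 74.5 and 75.5 in WT TFH cells, a log2 fold change of 0.74 (adjusted p = 5.06e-05 from limma). The inflammasome adaptor gene Pycard and the protease gene Casp1 were both at 0.29, and Adam17, a sheddase gene, was at 0.17 (adjusted p = 0.0472 from limma). Nek7, which encodes a partner of NLRP3, was lower at -0.33, as were Cd27, the gene of a co-stimulatory receptor shed after P2X7 opens, at -0.31 and Adam10, another sheddase gene, at -0.22. Nlrp3 itself lay below the array median on all 4 arrays. Values of this list come from the brightest probe set alone, and other probe sets of these genes were not examined here.

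Genes of the cAMP pathway on which the A2A receptor acts moved both ways. Of 10 measured, 4 were lower and 1 was higher, beside 7.18% lower and 12.5% higher over all genes, and the median of their log2 fold changes was -0.10. Prkaca, the gene of a catalytic subunit of protein kinase A, read 261 and 252 against 369 and 353 (log2 fold change -0.47, adjusted p = 0.000115 from limma). Gnas, which encodes the stimulatory G protein, was at -0.32, and the phosphodiesterase genes Pde4d and Pde3b, whose products break down cAMP, were at -0.37 and -0.28. Crem, a cAMP-induced transcription factor gene, was higher at 75.0 and 72.4 against 46.8 and 44.3 (log2 fold change 0.54, adjusted p = 0.000494 from limma). In this list too, only the brightest probe set of each gene was examined.

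Markers of other cells that carry CD39 were read beside Entpd1. Over all genes 12.5% were higher and 7.18% lower by the same test. At an unadjusted p under 0.05 from limma, 3275 of the 18193 genes were higher and 2181 lower. Of 13 myeloid markers 6 were higher and 0 lower (7 higher and 0 lower at an unadjusted p under 0.05 from limma). The summed intensity of the 13 was 1279 to 1377 in the Rictor-/- and 896 to 953 in the WT arrays. Of these sums Cst3 alone gave 728 and 673 in the Rictor-/- and 509 and 490 in the WT arrays. Cd14 and C1qa lay below the array median on all 4 arrays. Of 9 B and plasma cell markers 3 were higher and 0 lower (the same at an unadjusted p under 0.05), with sums of 458 to 489 against 203 to 218, most of them from Jchain, while Ms4a1 and Cd79a lay below the array median throughout. Of 7 regulatory T cell markers 2 were higher (Il2ra and Tnfrsf18) and 1 lower (Ikzf2), with sums of 3225 to 3256 against 3426 to 3431. At an unadjusted p under 0.05 from limma 2 were higher and 2 lower (Ikzf2 and Ctla4). Foxp3 lay below the array median on all 4 arrays, and Il2ra on 3 of the 4. Of 7 endothelial and platelet markers none passed (0 also at an unadjusted p under 0.05 from limma), with sums of 238 to 259 against 236 to 237. Of 7 TH1 effector markers 6 were higher and 0 lower (6 higher and 1 lower at an unadjusted p under 0.05 from limma), with sums of 6107 to 6238 against 3309 to 3328. The 1 lower was Tbx21, a transcription factor gene, at a log2 fold change of -0.12 (adjusted p = 0.151 from limma). Of the TH1 sums Gzma alone gave 1998 and 1823 in the Rictor-/- and 359 and 381 in the WT arrays. Of 3 NK and CD8 markers 1 was higher (Cd8b1), with sums of 158 to 173 against 119 to 126. The part of such cells in the values of Entpd1, P2rx7 and Nt5e was not tested.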

How the data were processed

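TFH cells of 2 Rictor-/- and 2 WT pools were hybridised to 1-colour Affymetrix mouse arrays. The authors deposited linear probe set intensities, 1 value per array. MAS5 and RMA stand in the processing notes without version or role. Groups and replicate numbers came from the sample titles. The platform annotation gives 1 symbol for 34945 of the 45037 probe sets, several for 932 and none for 9160, and a gene was named only from the 34945. Entrez numbers of 34741 were found in a RefSeq table (GRCm38.p6), which changed 0 symbols.

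Values were taken to log2(intensity + 16), each gene was represented by the probe set with the highest mean of these, and 18193 genes were fitted with limma 3.58.1 in R 4.3.3 (lmFit, eBayes with a trend), two-sided, with Benjamini-Hochberg adjustment and a threshold of 0.05. Other probe sets were read for the members, Rictor and the genes of the wider list that passed, from the same fit over all probe sets. Genes acting after P2X7, cAMP genes and cell markers were read from the brightest probe set alone. No filter on low values was used, and probe sets near or under the array medians were called dim. Where dim genes were left out, these were genes whose mean intensity was not above 20.2, the median of the probe set means. The fit was tested on simulated data. Alternatives were the scaling between arrays, the pseudocount, leaving out dim genes, the mean of all probe sets, the fit over all probe sets, eBayes without the trend, a replicate block, each array left out, and the one-tailed test named in the study's methods, without and with adjustment. The members and lists were chosen with earlier results of these data known, so counts over them support nothing by themselves. Named were all members, the wider list's genes that passed with a few others, and the 5 nearest profiles of the largest fall and rise. Some list members that did not pass (P2ry10b, Ada and Slc17a9) were named after their values were seen. No replicate pairing was used: deviations from the group means of same-numbered arrays correlated at -0.03 across genes. Promoter windows come from RefSeq by symbol.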

Additional observations from a re-analysis of the deposited data

How the results depend on the processing

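P2rx7 and Nt5e stayed lower and Entpd1 stayed higher and past the threshold in 13 of 14 alternatives each. The exception was the methods' one-tailed test after Benjamini-Hochberg adjustment, in which 0 members were higher, 0 were lower and 0 genes of the wider list were higher (P2rx7 at a log2 fold change of -0.72, adjusted p = 0.0680). At an unadjusted p that test called 2 members higher (Entpd1 and P2ry10) and, in the wider list, 8 genes higher and 3 lower. This unadjusted reading is 1 of the 13 alternatives counted as passed. The P2rx7 value ran from -0.75 to -0.61, the latter with the mean of all its probe sets. With 1 array left out, where the lone array is assumed to vary like the other group, P2rx7 ran from -0.75 to -0.70, Entpd1 from 0.43 to 0.47 and Nt5e from -0.57 to -0.51, and the wider list held 1 to 5 higher genes: 1 without WT replicate 1 and 3 without WT replicate 2. In the wider list 1 gene was lower, Slc29a3, with median centring, quantile normalization, dim genes left out, eBayes without the trend or a pseudocount of 1. P2rx1, which did not pass anywhere, changed sign without Rictor-null replicate 2 (0.00039) and without WT replicate 2 (0.0050), with a range of -0.0393 to 0.0050 over the arrays left out. With the replicate number as a block P2rx7 was at -0.72 (adjusted p = 4.35e-07), and 1 member was higher and 2 lower as before. With a WT array left out, the genes called over the whole array fell to 1004 higher and 456 lower (without WT replicate 1) or 931 and 497 (without WT replicate 2), against 2281 and 1306. Averaging the probe sets of each gene, 842 were lower, and by the methods' test 2230 were lower without adjustment, and 3 were higher and 3 lower after it. The cause of these shifts was not tested.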
